A study of Mus musculus with 6 samples.

Results

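The enzymes described here are the drug- and odorant-metabolising families of the mouse nose: cytochromes P450 of families 1 to 4 (Cyp), flavin monooxygenases (Fmo), epoxide hydrolases (Ephx), glutathione S-transferases (Gst), sulfotransferases (Sult) and UDP-glucuronosyltransferases (Ugt). Their members were chosen by gene symbol alone, so that they include pseudogenes such as Cyp4f41-ps and the antisense transcript Cyp4x1os. This gave 155 of the 24564 genes in the deposited matrices. Of these, 124 had at least 1 UMI in the cells kept (a UMI, or unique molecular identifier, marks 1 captured RNA molecule), and 52 reached 10 CPM (UMIs of a gene scaled to a common total per class and library) in at least 1 of 6 olfactory cell classes.

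The data were 6 droplet single-cell RNA-seq libraries of main olfactory epithelium, made for a study of HP1 proteins in odorant receptor choice. The 2 swap libraries came from Cbx*/* mice with a Cre allele, in which the coding part of Cbx1 (HP1β) is replaced by Cbx5 (HP1α) once Cre has acted. Control replicate 1 was a wild-type animal with that Cre allele and control replicate 2 a Cbx*/* animal without Cre, so the controls did not share a genotype. The last 2 libraries, tetOP2 and gg8tTA, carried the gg8-tTA driver of olfactory neurons, in tetOP2 together with the tetOP2iresGFP odorant receptor transgene. Ages were not given in the sources used here, and Xist was high (1125 to 1206 CPM in sustentacular cells) in swap replicate 1, tetOP2 and gg8tTA and at most 0.576 in the other 3, so sex was not balanced between swap and control.

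Xenobiotic metabolism runs in phases. Phase I enzymes (Cyp, Fmo, Ephx) add or expose a reactive group on a foreign molecule, and phase II enzymes (Gst, Sult, Ugt) join it to glutathione, sulfate or glucuronic acid so that it can be exported. In the olfactory mucosa these enzymes are known for clearing odorants and inhaled toxicants, and sustentacular cells, the supporting cells that surround the sensory neurons, are their best-known site. Bowman glands secrete the mucus. Horizontal basal cells (HBC) are the quiescent stem cells of the epithelium, and globose basal cells (GBC) are the dividing progenitors that give rise to immature and then mature olfactory sensory neurons (OSN).

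Cells were assigned to classes by marker genes that included no member of these families, and UMIs were summed per class and library. The gates held 3336 sustentacular cells, 214 gland cells, 1084 HBC, 936 GBC, 3333 immature OSN and 4760 mature OSN. A further 2006 neutrophils and B cells (called leukocytes here) gave a reference for the RNA that a droplet picks up from the medium. Their median was 3351 to 7921.5 UMIs over libraries, against 9017 to 10834.5 in HBC and 11267 to 12637.5 in mature OSN. An equal amount of free RNA is thus a larger share of a leukocyte. The part of depth in the comparisons with leukocytes was not tested. Only 62 and 52 leukocytes came from tetOP2 and gg8tTA. Libraries held 2563 to 5091 kept cells with a median of 9991 to 11543 UMIs, and at most 13 cell barcodes were shared by any pair of libraries. The labels name sensory neurons as the cell type, but the markers of all these classes were present. Sustentacular Ermn averaged 688 CPM in the sustentacular gate and 2.59 in mature OSN, a contrast that the gate itself favours, since Ermn is one of its markers. Cbx1, the replaced gene, had 0.805 and 1.23 CPM among sustentacular cells of swap animals, against 64.2 and 50.3 CPM in controls. Each RNA molecule is counted once from its 3′ end, so levels are not scaled by gene length.

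Sustentacular cells devoted far more of their RNA to these families than any other class gated. Members took 4.94% ± 0.510 of sustentacular UMIs (mean ± SD, n = 6 libraries), against 0.95% ± 0.328 in gland cells (n = 4 libraries with at least 20 gland cells) and 0.872% ± 0.134 in HBC. The share was 0.143% ± 0.0254 in GBC, 0.149% ± 0.0476 in immature OSN and 0.257% ± 0.0287 in mature OSN. Leukocytes, which should lack most of these enzymes, showed 0.112% ± 0.0813. Erythroid cells, another blood gate, showed 0.301% ± 0.227, so the level in blood cells varied with the gate. Respiratory secretory cells (0.951% ± 0.247) and microvillar cells (0.904% ± 0.236) were near gland cells and HBC. The lowest sustentacular library (3.93%) was above the highest gland library (1.31%), while the GBC, immature OSN and leukocyte ranges overlapped.

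**Figure D1:**
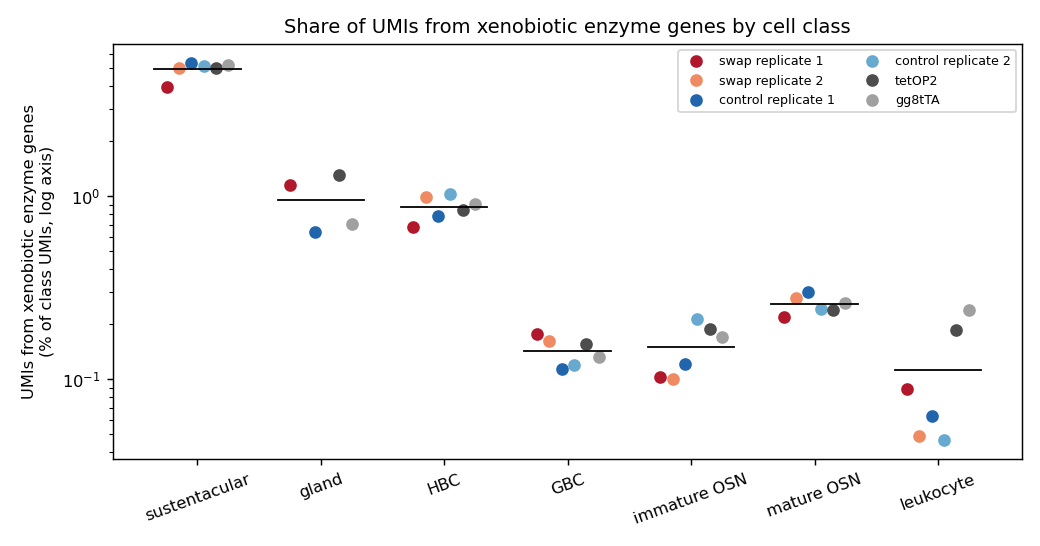
Share of UMIs that came from the enzyme families, in percent of all UMIs of a class on a log axis. Each point is a library with at least 20 cells of that class, and the bar is the mean; the sustentacular points lie between 3.93% and 5.35%, above every other class.

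Within sustentacular cells the families were unequal. Cyp genes gave 3.15% of UMIs, Gst genes 1.25%, Sult genes 0.362%, Fmo genes 0.0845%, Ephx genes 0.0522% and Ugt genes 0.0467%. A few members carried nearly all of it: the leading gene held 31.4% of the summed member level, the top 3 held 71.4% and the top 10 held 93.0%.

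The leading gene was Cyp2a5, a coumarin and nicotine oxidase, at 15487 ± 3143 CPM, with a lowest library of 10691 and a highest of 18545. Cyp2g1, a P450 known almost only from olfactory mucosa, followed at 11325 ± 2500, from 6681 in swap replicate 1 to 14199 in gg8tTA. Cyp2f2, which activates naphthalene, stood at 2586 ± 699 and Cyp1a2 at 1043 ± 279. The genes of Cyp2a5, Cyp2g1 and Cyp2f2 lie close together on chromosome 7 (GRCm38: 26835339 to 26843264, 26808927 to 26821197 and 27119955 to 27133660). Lower P450 members were Cyp2j6 at 394 ± 38.9, Cyp4v3 at 219 ± 30.3, Cyp4b1 at 187 ± 89.3 and Cyp4f15 at 105 ± 25.5.

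Among the conjugating enzymes, Gstm1 led at 8431 ± 3447, from 3916 in swap replicate 1 to 14059 in tetOP2. The sulfotransferase Sult1c1 stood at 3206 ± 697, Gsta4, which detoxifies lipid aldehydes, at 1484 ± 857, Gstm5 at 1019.6 ± 377 and Gstm2 at 841 ± 180. Gsta3 (285 ± 24.9), Sult6b1 (173 ± 110.4) and Gstt3 (131 ± 20.2) completed the conjugating genes among the 20 highest, with the glucuronosyltransferase Ugt2a1, known from olfactory tissue, at 429 ± 218. Microsomal epoxide hydrolase, Ephx1, stood at 507 ± 97.0, and the flavin monooxygenases Fmo6 and Fmo2 at 440 ± 90.5 and 285 ± 175. Reads of close paralogs may have been split or lost in the counting: Ugt2a1 and Ugt2a2 share exons, and Cyp2a4 and Cyp2a5 are nearly identical, so the level of each member of such a pair is uncertain.

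The gap to mature OSN was large. Of 64 members that passed the filter on low counts, 51 were higher and 7 lower in sustentacular cells than in mature OSN (edgeR quasi-likelihood test, Benjamini-Hochberg adjusted p under 0.05 and a log2 fold change over 0.58 in size), where 63.0% of all 14989 genes tested were called (29.3% higher and 33.8% lower). The median log2 fold change was 5.04 for members and -0.12 for all genes. Cyp2a5 was higher by a log2 fold change of 7.78 (SE 0.80, edgeR adjusted p = 1.84e-10), Cyp2g1 by 7.83 (SE 0.86) and Gstm1 by 7.46 (SE 0.63). The smallest adjusted p values belonged to Cyp2j6 (log2 fold change 6.05), Cyp4f15 (7.57), Gstt3 (7.07), Sult1b1 (6.02) and Sult6b1 (7.10). Of 20 Gst members 18 were called higher, all but Gstz1 and Gsto2, as were all 5 Fmo and all 3 Ugt members tested. Gsta1 and Ugt2b38, both among the 51, had no UMI in mature OSN, so they could only be called higher.

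The other neuronal-lineage classes gave the same picture at lower contrast. Against immature OSN, 47 members were higher and 7 lower, with 59.3% of all genes called (28.0% higher and 31.3% lower) and a median of 4.18 for members. Against GBC, 45 were higher and 4 lower, with 54.8% of all genes called (28.5% higher and 26.3% lower) and a median of 3.79. Cyp2a4 and Gsta1 in immature OSN and Ugt2b38 in GBC had no UMI, so they could only be called higher. Cyp2j6 had the smallest adjusted p in both, at log2 fold changes of 5.19 and 4.07, and Cyp4f15 and Ephx1 (microsomal epoxide hydrolase) were among the 5 highest-ranked in both. The members lower in sustentacular cells than in GBC were Sult2b1 (-3.18), Gsto1 (-3.35), Cyp4f18 (-4.34) and Gstcd (-0.98). Cyp4f18 in GBC was carried by the swap libraries (6.49 and 12.1 CPM, against 0 to 1.63 in the other 4) and was not called with Leiden clusters in place of gates (-0.16), and Gstcd was not called without control replicate 2 (-0.81) or without gg8tTA (-0.88).

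**Figure D2:**
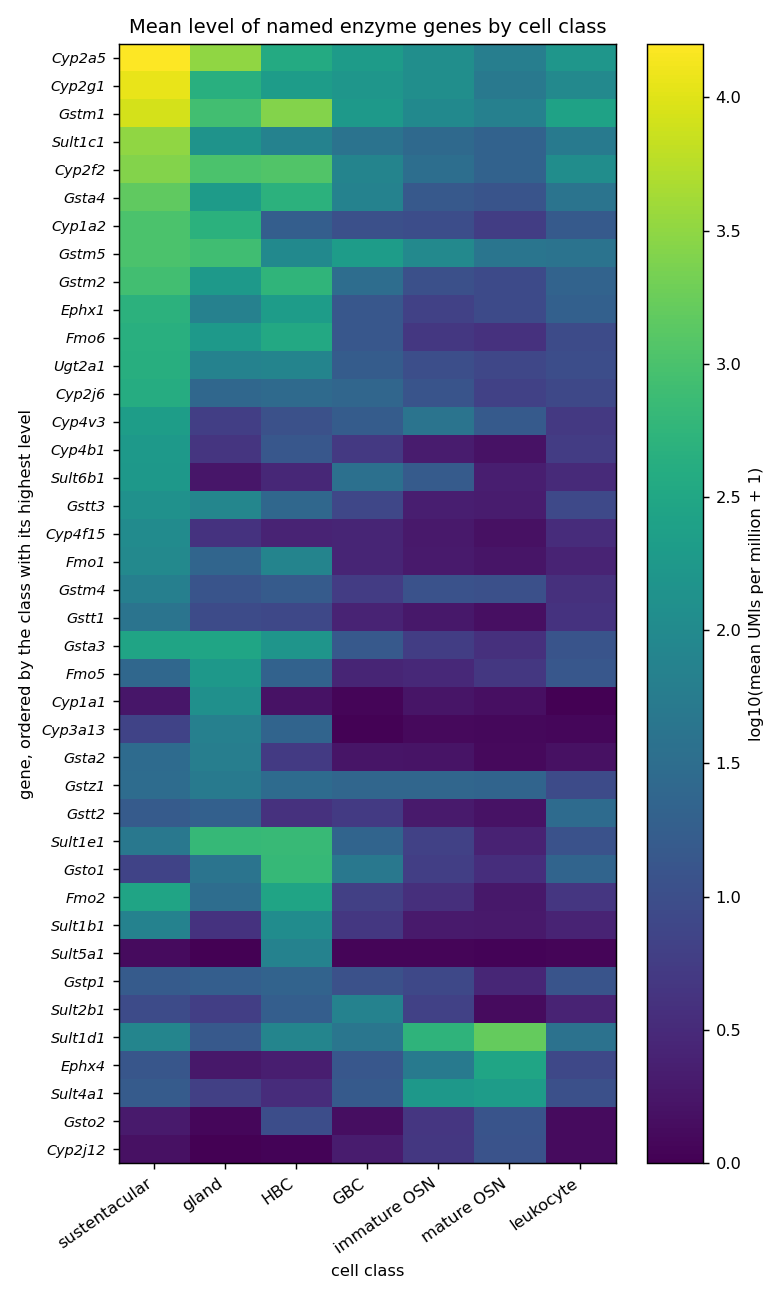
Mean level of each named gene (rows) in 6 olfactory classes and in leukocytes (columns), as log10 of mean CPM plus 1, with genes ordered by the class where the level was highest. Cyp2a5, Cyp2g1 and Gstm1 are brightest in the sustentacular column, while Sult1d1, Ephx4, Sult4a1, Gsto2 and Cyp2j12 are brightest in mature OSN.

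Gland cells shared part of the sustentacular set and had members of their own. Sustentacular cells were higher for 27 members and lower for 13, with 30% of all genes called (17.9% higher and 12.1% lower) and a median of 1.56 for members and 0.21 for all genes. Cyp2a5 stood at 3210 ± 1594 in gland cells (n = 4) and did not pass this test (log2 fold change 1.76, SE 0.72, edgeR adjusted p = 0.0534), nor did Cyp2f2 at 1035.5 ± 384 or Gstm5 at 802 ± 434. Cyp2g1 (4.22, SE 0.88) and Gstm1 (3.35, SE 0.62) were called higher in sustentacular cells. The highest-ranked of these were Cyp2j6 (3.70), Cyp4v3 (5.17), Cyp4f15 (4.94), Sult6b1 (7.20) and Gstm4 (2.35).

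Cyp1a1, the classical target gene of the aryl hydrocarbon receptor, was nearly confined to the gland gate among the 6 classes. It stood at 103, 68.1, 176 and 157 CPM in the 4 gland libraries used (swap replicate 1, control replicate 1, tetOP2 and gg8tTA), and at 0.776 ± 0.720 in sustentacular cells. After each cell was thinned to 3000 UMIs, 14.8% of gland cells still had a Cyp1a1 UMI (8.11% to 19.0% over libraries), against 0.161% of sustentacular cells and 0 of 1295 leukocytes, which allows a share of up to 0.232%; without thinning the gland share was 20.6%. The difference from sustentacular cells was a log2 fold change of -7.32 (SE 0.48, edgeR adjusted p = 2.20e-12). Cyp3a13, a relative of the main liver drug-oxidising P450s, at 66.1 ± 24.2 (-3.75), Fmo5 at 169 ± 74.6 (-2.94), the estrogen sulfotransferase Sult1e1 at 646 ± 397 (-3.79) and Gstz1, of tyrosine breakdown, at 52.3 CPM (-1.01) were also called higher in gland cells than in sustentacular cells. Against leukocytes, 37 members were higher in gland cells and 2 lower, with 48.2% of all genes called (22.9% higher and 25.3% lower); Gstz1 (2.57), Cyp3a13 (7.62), Gsta2 (6.59), Cyp1a1 (called against leukocytes without a Cyp1a1 UMI, so that no fold is given) and Gstm5 (4.43) had the smallest adjusted p. The 2 lower members were Cyp4f18 (-8.25) and Gstt2 (-0.91). Cyp4f18 rested on 1 UMI in gland cells and Cyp3a13 on 3 in leukocytes, so the size of these folds is uncertain. Cyp1b1 and Cyp2u1 also had no leukocyte UMI, so they could only be called higher.

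HBC held members of several families, with 0.476% of UMIs from Gst, 0.187% from Cyp and 0.104% from Sult genes. Gstm1 led there at 2641 ± 1115 CPM, followed by Cyp2f2 at 1151 ± 476, Sult1e1 at 685 ± 350.5 and Gsto1, an omega-class transferase that reduces arsenic compounds, at 644 ± 347. Of 64 members, 29 were higher in sustentacular cells than in HBC and 13 lower, with 38.7% of all genes called (20.4% higher and 18.3% lower) and a median of 0.92 for members and 0.10 for all genes. Cyp2j6 (3.67), Cyp4v3 (4.33), Cyp4f15 (5.73), Sult6b1 (6.29) and Gstm4 (1.90) were the highest-ranked in sustentacular cells. On the HBC side were Sult5a1 (-8.32), Gsto1 (-7.09), Gsto2 (-3.16) and Sult1e1 (-4.12).

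Sult5a1 was the most restricted of the HBC genes. Its level ranged from 47.4 to 109.7 CPM over the 6 HBC libraries, with a median of 63.0, and averaged 0.310 in sustentacular cells. A Sult5a1 UMI was found in 20.1% of HBC thinned to 3000 UMIs, in 0.0965% of sustentacular cells and in 0 of 1295 leukocytes so thinned, which allows a share of up to 0.232% (44.2% of HBC without thinning). Gsto1 was found in 63.7% of thinned HBC, 6.74% of GBC, 1.19% of sustentacular cells and 3.30% of leukocytes.

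Cyp2a5 and Cyp2g1 were not shown to exceed the leukocyte level in HBC. The log2 fold change was 0.75 (SE 0.64, edgeR adjusted p = 0.335) for Cyp2a5 and 0.97 (SE 0.71, edgeR adjusted p = 0.252) for Cyp2g1, and their levels differed widely between libraries, from 42.0 to 983 CPM for Cyp2a5. The sustentacular marker Sec14l3 varied along with them in HBC, from 39.1 to 329, and its part in these values was not tested. In contrast, 36 members were higher in HBC than in leukocytes and 3 lower, with 50.2% of all genes called (25.9% higher and 24.3% lower) and a median of 2.12 for members and -0.03 for all genes; Sult1b1 (5.60), Sult5a1 (8.01), Fmo2 (6.09), Gstm2 (4.72) and Fmo1 (5.01) had the smallest adjusted p. Sult5a1 had 2 UMIs in all leukocytes, so the size of its fold is uncertain. Cyp1b1 and Ugt2b38, also called higher, had no leukocyte UMI, so they could only be called so. Cyp4f18, a leukotriene hydroxylase of white blood cells (-8.24), Gstt2 (-3.70) and Ephx4 (-2.46) were lower. For Fmo6 and Fmo2 the sustentacular and HBC levels did not differ beyond their error (log2 fold changes of 0.16, SE 0.42, and -0.09, SE 0.34).

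The GBC member share rested on how the cells were chosen: it was 0.143% by gates and 0.804% with Leiden clusters. The highest levels by gates, 205 ± 44.2 for Gstm5, 201 ± 147 for Cyp2a5, 183 ± 112 for Gstm1 and 160 ± 104 for Cyp2g1, included 3 of the leading sustentacular genes. Sult2b1, a cholesterol sulfotransferase, was the only member at 10 or more CPM with its highest level in GBC, at 72.8 ± 35.7, and its range of 35.2 to 128 was above every sustentacular library (3.99 to 15.7).

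Mature OSN led for 5 members, of which Sult1d1 was by far the highest. Sult1d1, which sulfates catecholamines and eicosanoids, stood at 1638 ± 416 CPM in mature OSN, 530 ± 90.6 in immature OSN and 43.9 ± 22.7 in GBC. It was detected in 94.1% of mature OSN thinned to 3000 UMIs, against 8.99% of sustentacular cells and 3.77% of leukocytes; the unthinned shares were 98.9%, 20.8% and 6.40%. Sult genes made up 0.188% of UMIs in mature OSN, most of the member share there. Ephx4, an epoxide hydrolase relative, reached 291 ± 44.1 in mature OSN and 52.5 ± 7.95 in immature OSN, and the brain sulfotransferase Sult4a1 211 ± 75.4 and 171 ± 57.6.

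Compared with mature OSN, sustentacular cells were lower for Ephx4 (-4.84), Gsto2 (-3.51), Cyp2j12 (-4.31), Sult4a1 (-3.89) and Sult1d1 (-4.68, SE 0.62, edgeR adjusted p = 3.96e-08). The same 5 genes ranked first on the neuronal side against immature OSN, with Sult4a1 at -3.36, Cyp2j12 at -2.79, Ephx4 at -2.12, Sult1d1 at -2.82 and Gsto2 at -1.66. Mature OSN exceeded leukocytes in 10 members and were below them in 30, with 69.3% of all genes called (37.0% higher and 32.3% lower) and a median of -1.45 for members and 0.12 for all genes. Ephx4 (5.48), Gsto2 (5.43), Sult4a1 (4.78), Cyp2j12 (5.81) and Sult1d1 (5.13) were the highest-ranked of the 10. Leukocytes held 2 Gsto2 UMIs and 1 Cyp2j12 UMI, so the size of these folds is uncertain. Cyp2u1, also among the 10, had no leukocyte UMI, so it could only be called higher. The highest-ranked of the 30 were Cyp4f18 (-8.27), Gstt2 (-5.84), Gstp1 (-2.87), Gsto1 (-3.84) and Gstt3 (-2.84). The leading sustentacular genes were near the leukocyte level in mature OSN or below it: Cyp2a5 was 60.6 ± 28.1 CPM there and 162 ± 130 in leukocytes. The part of the lower depth of leukocytes in these values was not tested.

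Counted by their leading class, 28 of the 52 members at 10 or more CPM were highest in sustentacular cells, 11 in gland cells, 7 in HBC, 5 in mature OSN and 1 in GBC. Several of these places were close. Gsta3 averaged 289 in gland cells and 285 in sustentacular cells, Fmo2 286 in HBC and 285 in sustentacular cells, and Sult1e1 685 in HBC and 646 in gland cells.

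Of the Ephx and Ugt families 3 members each passed the filter. Ephx2, the soluble epoxide hydrolase, averaged 2.26 CPM in sustentacular cells and was higher there than in mature OSN (4.17, SE 0.68), while Ephx3 at 0.379 did not pass the filter. Ephx1 was higher by 5.89 (SE 0.36). In the Ugt family, Ugt2a1 was higher in sustentacular cells than in mature OSN by 6.17 (SE 0.62) and Ugt2a2, at 34.9 ± 29.0, by 5.65 (SE 0.55). Ugt2b38 was also called higher, but no Ugt2b38 UMI was found in mature OSN, so that no fold is given.

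Other genes of the pathway followed the enzymes in part. Of 66 listed partner genes that passed the filter, 38 were higher and 5 lower in sustentacular cells than in mature OSN, with a median of 1.21, a share near the 63.0% of all genes called there, of which 29.3% were higher and 33.8% lower (median -0.12). All 5 partners of P450 electron transfer and haem delivery were higher: Por, the reductase that feeds electrons to every microsomal P450, at 1703 ± 374 CPM in sustentacular cells and 82.9 ± 18.6 in mature OSN, with Pgrmc1, Cyb5a, Cyb5b and Cyb5r3. Among suppliers of conjugation substrates 6 of 9 were higher and none lower, with Ugdh, which makes UDP-glucuronic acid, higher by 3.80 (edgeR adjusted p = 1.74e-20). Dcxr, a carbonyl reductase, was higher by 6.51 and Cyb5r3 by 3.61.

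The partner genes were divided where the enzymes were. Against HBC, 26 of 66 were higher in sustentacular cells and 22 lower, where 20.4% and 18.3% of all genes were, and of 7 regulators (receptors and transcription factors) 5 were lower and none higher, with Nfe2l2, the antioxidant response factor, at 113 ± 15.8 in sustentacular cells and 190 ± 32.4 in HBC. Ugdh (2.35), Pgrmc1 (1.80), the lactonase Pon3 (3.39) and the exporter Abcc5 (2.57) led on the sustentacular side. Against gland cells 23 were higher and 17 lower, where 17.9% and 12.1% of all genes were, and here the carboxylesterase Ces1a (-9.25), the alcohol dehydrogenase Adh1 (-7.57) and the organic anion transporter Slc22a20 (-9.55) marked the gland side: Slc22a20 averaged 473 ± 214 in gland cells and 0.744 ± 0.806 in sustentacular cells. Mature OSN had the carbonyl reductase Cbr1 (1.92) above leukocytes, and Mgst2 (-7.14) and Aldh2 (-4.95) below.

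Sustentacular cells were not uniform in these enzymes. They were divided into 10 subclusters on variable genes that included no member of the families, and 9 had at least 10 cells in 4 or more libraries. Of the 20 leading members, 10 ranged over at least 4-fold between subclusters. These are descriptions, since the clusters came from the same cells. The same count over other genes is not given, so it does not set the members apart. The range was 485-fold for Cyp4b1, 210-fold for Gstm5, 203-fold for Sult6b1, 93.5-fold for Fmo6, 82.3-fold for Sult1c1 and 37.3-fold for Gstm1, but 3.82-fold for Cyp2a5, 2.19-fold for Cyp2f2 and 1.71-fold for Gsta4. These sizes depended on how finely the cells were divided: with the clustering resolution halved and doubled, 7 and 12 of the 20 reached 4-fold, the range of Sult6b1 was 48.1-fold and 2045-fold, that of Gstm5 81.5-fold and 396-fold, and that of Cyp2a5 3.56-fold and 4.36-fold.

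Subcluster 1, with 707 cells, led outside the families with Bpifa1, a marker of respiratory secretory cells. It had the most Gstm1 (17433 CPM), Cyp4b1 (544) and Gstm2 (1147), and little Sult1c1 (138). Subcluster 2, with 605 cells, had the reverse: Sult1c1 at 11320, Gstm5 at 4087, Fmo6 at 1813 and Cyp2a5 at 25615, with Gstm1 at 467 and Cyp4b1 at 1.12. Its leading gene outside the families was Acsm4, an acyl-CoA synthetase known from the dorsal zone of the olfactory epithelium. Subcluster 3, with 559 cells, had the most Cyp2g1 (21806), Cyp1a2 (1693), Cyp4v3 (368) and Sult6b1 (724), and led outside the families with Spon2, Npy and Rgr. Subcluster 4 resembled subcluster 1 with more Cyp2g1 (14686), and subcluster 8, led by Serpina1b and Tac4, had the least Cyp2g1 (2140).

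Some subclusters carried signs of other cells or of low depth. Subcluster 5 had a median of 1836 UMIs per cell, subcluster 6 had 33595 and led with neuronal genes such as Elavl3 and Ebf1, and 115 of its 264 cells were from control replicate 2. Of the 111 cells of subcluster 9, 51 and 36 came from the swap libraries, and it was too small elsewhere to be compared. Subcluster 7 led with Top2a and other division genes, subcluster 10 with Coch, Cxcl2, Rgs13 and Foxi1, of which Foxi1 is a microvillar marker, and Col1a1, a fibroblast marker, was among the leading genes of subcluster 4. Bpifa1, the leading gene of subcluster 1, is likewise a marker of other cells. Subclusters 1, 4, 7 and 10 remain in the ranges above and in the division by Acsm4, and subclusters 5 and 6 in the ranges only.

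**Figure D3:**
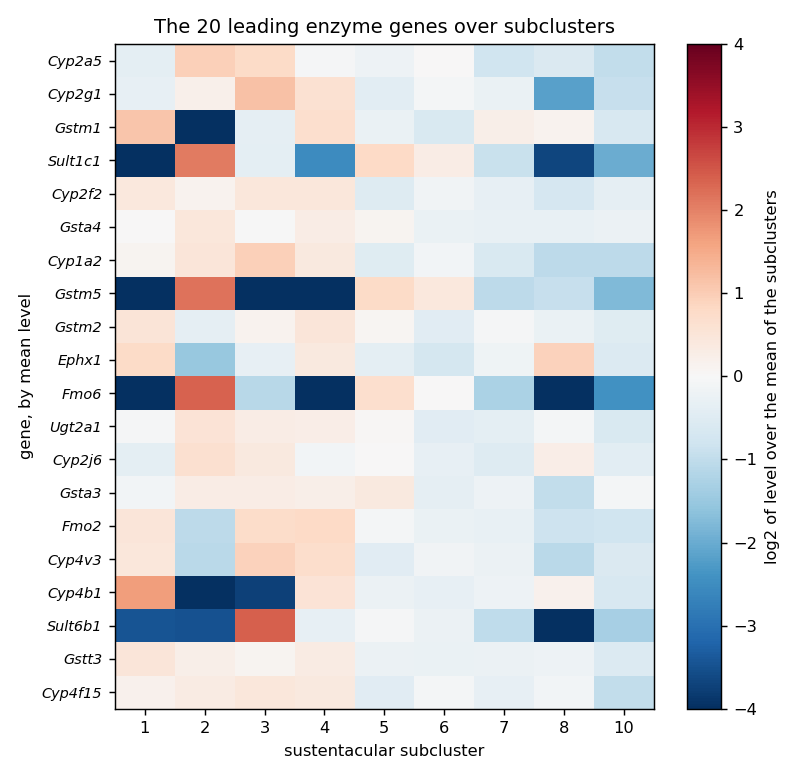
Level of the 20 leading enzyme genes (rows) in 9 sustentacular subclusters (columns), as log2 of the level over the mean of the subclusters, red above and blue below. Gstm5, Fmo6 and Sult1c1 are red in subcluster 2, where Gstm1 and Cyp4b1 are blue, and Sult6b1 is red in subcluster 3.

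The split along Acsm4 held in each library. Sustentacular cells of at least 5000 UMIs, without subclusters 5, 6 and 9, were divided into those with at least 3 Acsm4 UMIs and those with none, a division made after the subclusters were seen and given here without a test. Gstm5 averaged 3309 ± 645 CPM in Acsm4-positive and 52.0 ± 31.9 in Acsm4-negative cells (n = 6 libraries). Sult1c1 averaged 9771 ± 1125 and 397 ± 103, and Fmo6 1466 ± 224 and 35.2 ± 14.6. Nqo1, a quinone reductase used as a marker of the dorsal zone and not a member of these families, averaged 70.4 ± 26.3 and 11.8 ± 2.86.

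The Acsm4-negative cells held the opposite genes. Gstm1 averaged 13019 ± 3437 CPM there and 1042 ± 373 in Acsm4-positive cells. Cyp4b1 averaged 315 ± 163 and 1.97 ± 1.90, and the phenobarbital-inducible Cyp2b10 78.0 ± 35.8 and 3.03 ± 2.65. Ephx1, Fmo1, Gstt1 and Gstm4 were also lower in Acsm4-positive cells in all 6 libraries, by mean log2 differences of -1.80, -2.14, -2.09 and -2.19. Of 42 members at 10 or more CPM in sustentacular cells, 12 were higher in Acsm4-positive cells in all 6 libraries, 15 were lower in all 6 and 15 were mixed. The same count over all genes is not given here, so these numbers do not set the members apart from other genes.

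The leading P450 genes were present on both sides. Cyp2a5 averaged 24882 ± 6358 CPM in Acsm4-positive and 11616 ± 2332 in Acsm4-negative cells, and Cyp2g1 13034 ± 2773 and 10436 ± 3091, the latter lower in Acsm4-positive cells in 1 of 6 libraries. Cyp2f2 averaged 2612 ± 1014 and 2672 ± 946. The Acsm4-positive cells were deeper in all 6 libraries, with a median of 13246 to 21022 UMIs in Acsm4-positive and 12284 to 18139 in Acsm4-negative cells over libraries.

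**Figure D4:**
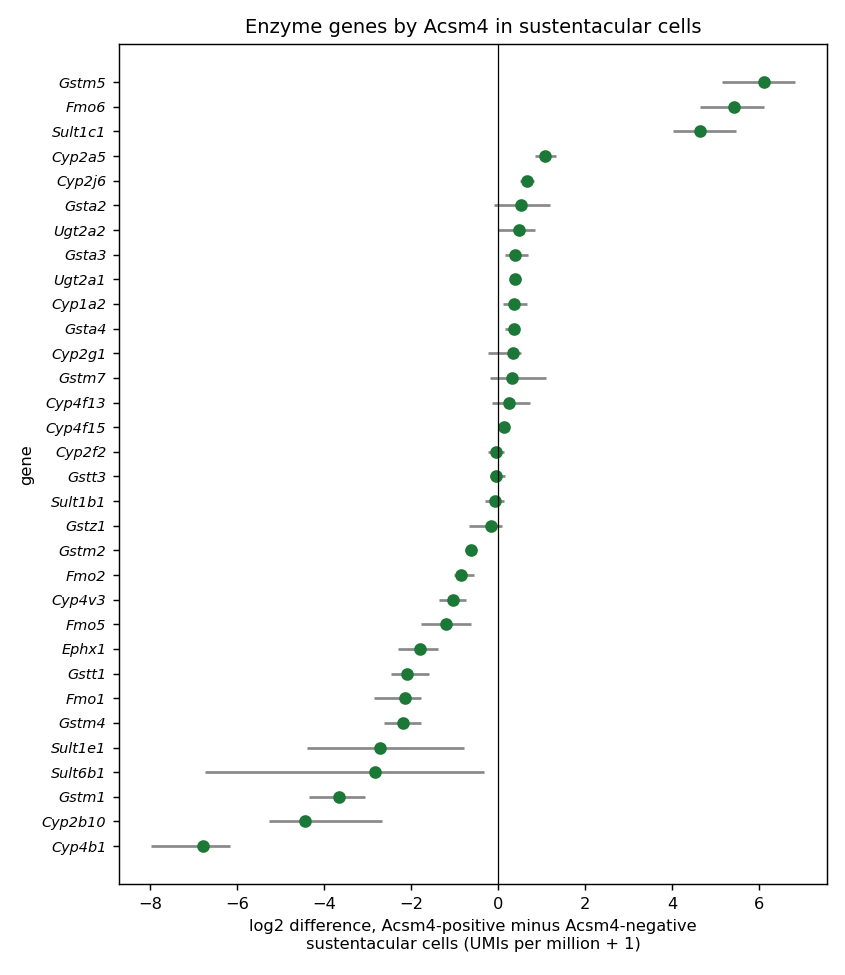
Log2 difference in CPM plus 1 between sustentacular cells with at least 3 Acsm4 UMIs and those with none, for enzyme genes at 30 or more CPM in either group. Points are means over 6 libraries and lines run from the lowest to the highest library; Gstm5, Fmo6 and Sult1c1 lie above 4 and Gstm1, Cyp2b10 and Cyp4b1 below -2 in every library.

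Gstm1 and Gstm5, which lay on opposite sides of this split, belong to the same gene cluster on chromosome 3 (GRCm38: 108012250 to 108017973 for Gstm1 and 107895854 to 107898685 for Gstm5). The 250 bases before a RefSeq start of a pair of genes from each side are shown so that the promoters of the members that moved together can be compared. They run 5′ to 3′ on the strand of the gene, and capitals mark the letters that were searched on both strands: TATAAA (a core promoter element), GCGTG (core of the xenobiotic response element) and TGACNNNGC (core of the antioxidant response element). Of 32851 RefSeq promoter windows of this length, 12.4% held the first of these, 28.2% the second and 10.2% the third.
Gstm5, chr3:107895604-107895853, plus strand: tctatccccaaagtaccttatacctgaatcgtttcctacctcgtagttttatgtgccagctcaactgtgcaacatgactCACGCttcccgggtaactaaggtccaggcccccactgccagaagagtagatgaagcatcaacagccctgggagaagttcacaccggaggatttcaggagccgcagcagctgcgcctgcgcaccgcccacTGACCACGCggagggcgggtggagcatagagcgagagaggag
Sult1c1, chr17:53990632-53990881, minus strand: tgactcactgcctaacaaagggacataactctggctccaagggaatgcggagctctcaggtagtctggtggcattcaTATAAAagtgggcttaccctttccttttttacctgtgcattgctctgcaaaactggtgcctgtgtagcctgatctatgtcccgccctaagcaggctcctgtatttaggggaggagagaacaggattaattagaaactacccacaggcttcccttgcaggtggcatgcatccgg
Gstm1, chr3:108017974-108018223, minus strand: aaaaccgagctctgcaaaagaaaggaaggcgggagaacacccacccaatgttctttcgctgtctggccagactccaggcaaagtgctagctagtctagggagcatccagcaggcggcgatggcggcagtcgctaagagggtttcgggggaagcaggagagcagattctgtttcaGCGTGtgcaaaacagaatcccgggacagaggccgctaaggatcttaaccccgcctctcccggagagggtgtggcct
Cyp2b10, chr7:25897408-25897657, plus strand: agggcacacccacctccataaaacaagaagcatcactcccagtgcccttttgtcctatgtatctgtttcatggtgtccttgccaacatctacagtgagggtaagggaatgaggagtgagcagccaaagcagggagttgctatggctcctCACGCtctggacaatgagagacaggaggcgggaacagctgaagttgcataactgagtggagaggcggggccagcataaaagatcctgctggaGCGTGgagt

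The Gstm5 window held TGACNNNGC from position -42 and GCGTG from -171 and -38 (on either strand, counted back from the start), of which the match at -38 overlaps the one at -42. Sult1c1 held TATAAA from -173, and Cyp2b10 GCGTG from -101 and -9. The Gstm1 window shown held GCGTG from -76, and that of its other RefSeq start held TATAAA from -30 and GCGTG from -231. The windows of Fmo6, Cyp4b1 and Sult6b1 held none of these letters. Over the 126 members with a RefSeq promoter (147 windows), 26.5% of windows held the first, 16.3% the second and 3.40% the third. A match in letters is a description and does not show that a factor binds there.

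The swap of Cbx1 for Cbx5 was compared with control in sustentacular cells, HBC, mature OSN and GBC. No fit was made in immature OSN. In sustentacular cells none of the 57 members tested was called by edgeR (2 had an unadjusted p under 0.05), where edgeR called 0.0% of 12834 genes. DESeq2 called 1 member. The share of all genes that DESeq2 called is not given for this or the other swap comparisons. The deleted gene itself, Cbx1, did not pass there (log2 fold change -5.79, SE 0.40, edgeR adjusted p = 0.312), so with 2 libraries a group the test missed a loss of that size. The median log2 fold change was -0.11 for members and -0.02 for all genes. The leading genes gave intervals that include no change: Cyp2a5 -0.07 (SE 0.40), Cyp2g1 -0.36 (SE 0.42), Gstm1 -0.55 (SE 0.43) and Sult1c1 0.10 (SE 0.44).

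Sult6b1, a sulfotransferase of little-known substrate, differed most. Its sustentacular level was 20.8 and 52.5 CPM in swap, 279 and 222 CPM in control, 199 CPM in tetOP2 and 267 CPM in gg8tTA cells. Both swap libraries lay below all 4 others. The log2 fold change of swap against control was -2.79 (SE 0.50, unadjusted p = 0.00244 and adjusted p = 1.00 in edgeR), so it was not called by the main test. DESeq2 called it at -2.81 with an adjusted p of 4.93e-06, but the share of all genes that DESeq2 called is not given here. Over 12 alternatives of the analysis the log2 fold change of Sult6b1 lay between -3.54 and -2.31. It was -2.49 without control replicate 1 and -3.05 without control replicate 2. These refits left 1 control library, so their calls are not counted here.

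Sult6b1 was also lower in the swap libraries within subcluster 3, where its level was highest. There it stood at 132 and 238 CPM for swap (95 and 90 cells), 1026 and 1196 in the controls (155 and 65 cells) and 793 and 958 in tetOP2 and gg8tTA. Among Acsm4-negative cells it stood at 16.4 and 66.6 CPM for swap and 214 to 339 in the other 4 libraries. Among Acsm4-positive cells the swap values of 12.9 and 6.71 CPM were below the control values of 149 and 202 but not below those of tetOP2 (1.02) and gg8tTA (6.93). In cells thinned to 3000 UMIs, Sult6b1 was detected in 3.23% (95% exact binomial interval 1.98% to 4.95%) and 3.80% (2.42% to 5.64%) of swap sustentacular cells, 12.3% (9.88% to 15.04%) and 10.3% (7.66% to 13.4%) of control cells, and in 0.920% of leukocytes; these intervals cover counting error only. Without thinning the shares were 6.07% and 7.88% in swap and 17.4% and 20.6% in control libraries. In GBC, Sult6b1 stood at 7.79 and 17.9 CPM for swap and 64.5 and 29.2 CPM for control (-1.85, SE 0.58, edgeR adjusted p = 1.00).

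**Figure D5:**
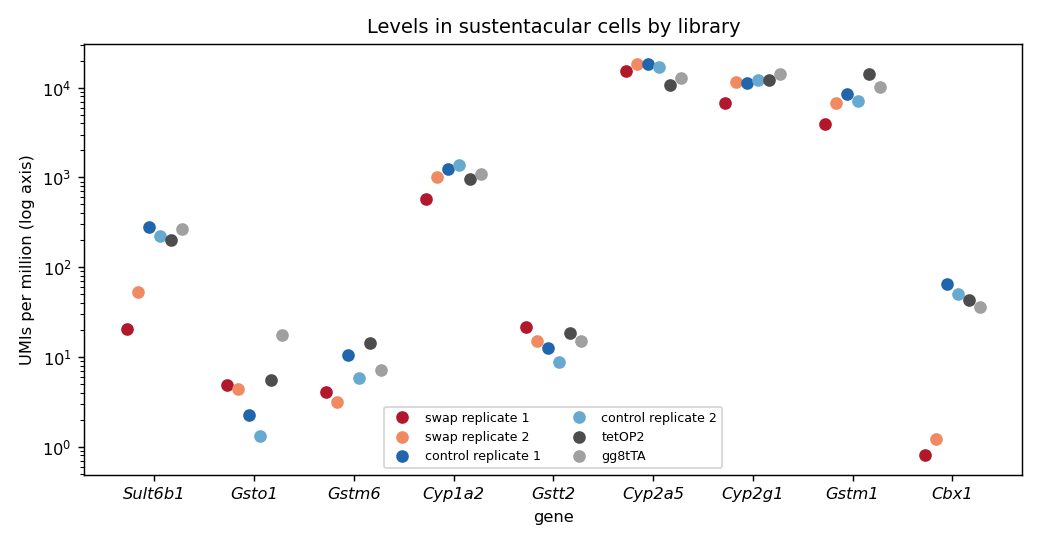
Level in sustentacular cells of each library, in CPM on a log axis, for the 5 enzyme genes with the smallest p between swap and control, 3 leading enzyme genes and Cbx1. Sult6b1 lies at 20.8 and 52.5 for swap and at 199 or more in every other library, while Cyp2a5 overlaps between the groups.

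The other sustentacular members with small p were Gsto1 (log2 fold change 1.38, at 4.83 and 4.44 in swap and 2.24 and 1.33 in control libraries), Gstm6 (-1.17), Cyp1a2 (-0.72, at 570 and 1018 against 1251 and 1379) and Gstt2 (0.79), none called by edgeR with adjusted p of 1.00. Swap and control libraries did not overlap in 11 of 57 members, where 16.2% of all genes did not overlap. Swap replicate 1 was lowest of all 6 libraries for Cyp2g1, Gstm1, Cyp1a2 and Cyp4b1, and it also had the largest share of cells with at least 3 Acsm4 UMIs, 38.7% against 26.3% in swap replicate 2, 25.8% and 30.03% in the controls, 19.5% in tetOP2 and 29.1% in gg8tTA. Within Acsm4-negative cells swap replicate 1 was lowest for Gstm1 (8095 CPM, against 11915 to 18482) and Cyp4b1 (102, against 208 to 498). The same held for Cyp2g1 (5499, against 9380 to 14990) and Cyp1a2 (500, against 899 to 1359). The part of the Acsm4 share in the levels of swap replicate 1 was not tested.

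RNA of other cells also differed between these libraries. In the sustentacular gate the summed level of 6 neutrophil markers was 1483 and 548 CPM in swap and 24.3 and 61.3 in control libraries, and that of 8 mature OSN markers was 285 and 918 in swap and 77.5 and 1749 in control libraries. The part of either in these results was not tested. The summed member share of sustentacular UMIs was 3.93% and 5.04% in swap and 5.35% and 5.14% in control libraries. In GBC the order of the groups was the opposite, 0.177% and 0.162% in swap and 0.113% and 0.120% in control libraries. In immature OSN the share was 0.103% and 0.1004% in swap and 0.121% and 0.212% in control libraries. Control replicate 2 had Cyp2a5 at 370 and Cyp2g1 at 362 CPM there, against at most 109 and 154 in the other libraries. The groups overlapped in HBC (0.6747% and 0.9945% in swap, 0.7806% and 1.0317% in control). They also did in mature OSN (0.2195% and 0.278% in swap, 0.2988% and 0.2429% in control). No p-value is used for these shares, since an exact permutation of 2 against 2 libraries cannot go below 0.333.

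In HBC none of 39 members was called (6 with an unadjusted p under 0.05; DESeq2 called none), where 0.0102% of 9811 genes, that is Cbx1 alone, was called. Sult1d1 stood at 22.0 and 43.8 CPM in swap HBC and 94.5 and 145 in control HBC (log2 fold change -1.89, SE 0.43, edgeR adjusted p = 1.00, and 0.0483 with the replicate number as a block), Sult1e1 at 465 and 576 against 951 and 1265 (-1.10), and Cyp2f2 at 1283 and 1586 against 640 and 860 (0.92). Sult1b1 (0.94) and Gstt1 (-1.56) came next. For the fit with the block, the share of all genes called is not given here. The 4 HBC libraries did not overlap for 13 of 39 members, where 21.4% of all genes did not overlap. Refits without control replicate 1 or without swap replicate 2 left 1 library in a group, so their calls are not counted here.

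In mature OSN none of 32 members was called (2 with an unadjusted p under 0.05; DESeq2 called none), where 0.0% of 12310 genes were called. Cyp4v3, a fatty acid hydroxylase, stood at 19.6 and 21.1 CPM in swap and 10.1 and 8.90 in control libraries (1.06, SE 0.26, edgeR adjusted p = 0.755). Gstm1 (-0.94), Fmo6 (-2.26), Gsta3 (-1.25) and Cyp1a2 (-1.03), all at most 24.0 CPM in these libraries, followed. With predicted doublets kept, Gstm1 (0.82) and Cyp1a2 (0.55) turned and Fmo6 (-0.25) and Gsta3 (-0.14) came near no change. Sult1d1, the leading neuronal member, stood at 1492 and 2083 in swap and 2091 and 1789 in control libraries, which overlap. Swap and control did not overlap for 6 of 32 members, where 18.4% of all genes did not overlap.

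In GBC none of 35 members was called by edgeR (7 with an unadjusted p under 0.05; DESeq2 called 1), where 0.0% of 11212 genes were called. Cyp4f18 stood at 6.49 and 12.1 CPM in swap and 0.311 and 0.231 in control libraries (4.97, SE 0.76, edgeR adjusted p = 0.721). Cyp4f18 is a gene of white blood cells, at 58.6 ± 43.0 in the leukocyte gate, and the summed neutrophil markers in GBC were 569 and 775 in swap and 102 and 25.45 in control libraries; their part in this value was not tested. Cyp2a5 (1.58), Gsta3 (2.56) and Gsto1 (1.40) had the next smallest p. The GBC libraries did not overlap for 15 of 35 members, where 23.9% of all genes did not overlap. Gland cells were too few in 2 of the 4 libraries (18 and 19 cells) for this comparison.

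The effect of the swap was not shown to differ between sustentacular cells and mature OSN for any of 62 members (edgeR, interaction term; 6 with an unadjusted p under 0.05; DESeq2 called 1), where 0.0% of 14172 genes were called. Cyp4v3 had the smallest p, with a difference of -1.18 (SE 0.21, edgeR adjusted p = 1.00). Gstt2 (1.92), Cyp4b1 (-1.42), Gstm5 (0.85) and Gsta3 (1.10) followed.

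The tetOP2 and gg8tTA libraries, 1 of each, allow no test. In sustentacular cells 3 of 51 members with at least 20 UMIs in the pair were more than 2-fold higher in tetOP2 and 2 were more than 2-fold lower, where 1.1% and 1.96% of all genes were. In HBC 0 of 40 were higher and 7 lower (all genes 1.77% and 3.9%), and in mature OSN 1 of 35 was higher and 4 lower (all genes 1.74% and 4.09%). Cyp2b10 stood at 60.2 CPM in tetOP2 (95% exact Poisson interval 53.8 to 67.2) and 27.7 in gg8tTA (22.9 to 33.1), and Gsto1 at 5.59 (3.77 to 7.99) and 17.7 (14.0 to 22.2). In HBC, Cyp2f2 stood at 743 (697 to 792) in tetOP2 and 1795 (1734 to 1857) in gg8tTA. These intervals cover counting error only.

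Some members stood apart in the tetOP2 and gg8tTA libraries, which share the gg8-tTA driver: both lay outside the range of the 4 swap and control libraries and the means differed by over 2-fold. In sustentacular cells this held for 6 of 42 members, where 9.88% of all genes stood apart in the same way. Fmo2 was at 99.95 and 80.9 CPM in tetOP2 and gg8tTA and between 219 and 476 in the other 4. Gstp1, the pi-class glutathione transferase, was at 42.0 and 34.1 there and between 2.39 and 6.12 in the others. Cyp2a4, a steroid hydroxylase nearly identical to Cyp2a5, was at 38.8 and 57.4 against 1.23 to 2.24, and Ugt2a2, which shares exons with Ugt2a1, at 4.29 and 4.61 against 24.3 to 71.8. Gstm4 was higher in tetOP2 and gg8tTA and Ugt2a1 lower.

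Fmo2 and Gstp1 stood apart in HBC as well, where 3 of 33 members and 8.6% of all genes did so: Fmo2 was at 61.7 and 71.4 against 268 to 498, and Gstp1 at 48.0 and 57.9 against 1.94 to 6.88. In mature OSN 8 of 16 members and 8.85% of all genes stood apart. Gstm1 was at 199 and 134 CPM in mature OSN of tetOP2 and gg8tTA and between 9.19 and 24.0 in the other libraries, and the sustentacular marker Sec14l3 was at 54.1 and 54.4 against 16.5 to 27.6. The part of sustentacular RNA, of the genotype and of the library preparation in these differences was not tested. The sources used here do not say whether the 6 matrices were counted with the same reference and software version, which bears on close paralogs and shared exons (Cyp2a4, Ugt2a2, Gstp1) here and in the 6-library means, and was not tested.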

How the data were processed

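Gene-by-cell UMI counts of 6 droplet libraries were used as deposited. The authors had dissociated the epithelium with papain, aligned reads to mm10 and counted them with Cell Ranger, introns included; the matrix headers give software version 3.1.0 for the swap and control libraries, and none for the other pair. From these counts, droplets under 1000 UMIs or 500 genes were dropped, and the highest Scrublet scores (0.8% per 1000 cells) were removed as doublets, which left 23955 cells. Library totals and kept cells set the precision, and intervals cover counting error only. Each cell was gated by the mean standardized level of marker lists (at least 0.5, and 0.25 above the next list). UMIs were summed per class and library (at least 20 cells) and scaled to CPM. edgeR 4.0.16 (quasi-likelihood, TMM, filterByExpr) in R 4.3.3 was fitted over all genes, with library as a covariate between classes and 2 swap against 2 control libraries within a class, and calls needed a Benjamini-Hochberg adjusted p under 0.05 and a log2 fold change over 0.58. DESeq2 1.42.0 was an alternative. The other alternatives were totals without TMM, no filter, Leiden clusters for gates, cells with at least 3000 UMIs, doublets kept, each library left out and the replicate number as a block. Nothing says whether a library held 1 animal, so p-values measure the spread between these libraries. Leiden subclusters (scanpy 1.11.5, resolution 0.6, 1500 variable genes without members) are descriptions.

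Genes named were the 20 highest members in sustentacular cells, the 4 highest in each other class, the 5 members with the smallest adjusted p in each direction of a class contrast, the 5 with the smallest p in each swap contrast, members of families with under 4 tested, and up to 4 pathway genes per class contrast; others named here were chosen after their values were seen, among them Cyp2b10, Gstm4, Gstt1, Fmo1 and Nqo1 in the Acsm4 split. Some genes that met this rule are not reported here. The members and all lists were chosen with earlier results of these data known. The test was tested on simulated data with 200 genes changed, 50 at each fold size, of which 2-, 4- and 16-fold are given here. Between sustentacular cells and mature OSN (14445 genes) it recovered 28, 35 and 46 of 50, and 151 of all 200, with 3 false calls. Between swap and control sustentacular cells (12834 genes) it recovered 0, 21 and 45 of 50, and 101 of all 200, with 12 false calls. On the data the latter test missed Cbx1 at a log2 fold change of -5.79, so the simulated counts may overstate what it recovers.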

Additional observations from a re-analysis of the deposited data

How the results depend on the processing

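Between classes, 951 recomputed values of the named members kept their direction and call and 11 lost the call (Gstz1, Cyp4f18, Gstcd, Gstt2 and Ephx4), and none reversed; each count of members called stayed within 1.5 times its main value. Scaling by library totals without TMM moved the median log2 fold change of all genes from 0.21 to 0.58 for sustentacular against gland cells. For HBC against leukocytes it moved from -0.03 to 0.41, and for mature OSN against leukocytes from 0.12 to 0.57. In the last of these 12 members were then higher and 24 lower. The share of all genes called under that scaling is not given, so these counts do not set the members apart. With Leiden clusters in place of gates the GBC member share was 0.804%. For swap against control, DESeq2 called 1 member in sustentacular cells (Sult6b1), 1 in GBC (Cyp4f18) and 1 in the interaction (Cyp4v3), and GBC without a filter on low counts gave 1. No share over all genes is given for these calls, so they do not set the members apart from other genes. Some refits that lacked 1 library called members in sustentacular cells and in HBC. The lone library is then assumed to vary like the others, and no share over all genes is given, so these calls are not counted here. The labels do not say that a replicate number marks a shared batch, so samples were not paired. Deviations of same-numbered libraries correlated by 0.575, 0.535, 0.446 and 0.309 across genes in sustentacular cells, HBC, GBC and mature OSN. With the replicate block 1 member (Sult1d1) was called in HBC and 0 in the other classes. No share over all genes is given for that block, so this call does not set Sult1d1 apart from other genes. Some uncalled swap values reversed: Gsto1 in GBC with Leiden clusters (-0.10), and with doublets kept Cyp1a2 (0.55) and Gstm1 (0.82) in mature OSN and Gsta3 in the interaction (-0.0547). The cause of these changes was not tested. An alternative chosen after seeing the data, without subclusters 5, 6 and 9, called 0 members in sustentacular cells. With 2 libraries a group, 2-fold changes between swap and control were below what the test could recover in simulation.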
